A study of Mus musculus with 2 samples.

Results

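Processed pseudogenes are copies of a spliced messenger RNA that were reverse transcribed and inserted elsewhere in the genome. The 153 described here are all the genes annotated as processed pseudogene whose mean over the control vector and GR vector libraries was at least 100 deposited scaled reads, out of 1712 processed pseudogenes and 21542 genes in the table. They were chosen by that mean, so their levels are a description and carry no test. The rule did not use the difference between the libraries, but a gene can reach the mean through 1 library alone, as 11 of the 153 did with fewer than 100 reads in the other. Sequencing was of messenger RNA from MIN6, a mouse insulinoma line (strain C57BL/6 per the labels) that makes insulin and stands in for beta cells in culture. Cells in 3.5 cm dishes, grown with 25 mM glucose and 15% serum, received 4 ug of plasmid with 4.8 ul of Lipofectamine 2000. The plasmid was a control vector in 1 library and an expression vector for GR, the glucocorticoid receptor, in the other. Which form of GR the cDNA encoded, which promoter drove it, when cells were harvested and whether a glucocorticoid was added is not given in the sources used here. With 1 library per group no difference has a replicate check, and the 95% intervals below (exact Clopper-Pearson, from the reads) cover counting error only. Pairs of reads are given in the order control library, then GR library.

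A retrocopy arises when the enzymes of LINE-1 elements act on a cellular messenger RNA, so it lacks introns and the parent gene's promoter. Genes that are strongly expressed in the germ line, such as those of ribosomal proteins and Gapdh, have left the most copies in mammalian genomes. Many copies are silent, some are transcribed from a promoter nearby or as a stretch of the gene they landed in, and young copies still resemble the parent closely. A read that lies in a stretch shared with the parent matches both places, and how such reads were assigned is not given in the sources used here. The reads of a pseudogene and of its parent are therefore uncertain wherever their sequences are the same.

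The control library held 18537326 reads and the GR library 18525668. Nr3c1, which encodes GR, had 2645 and 5202. All 10 beta cell markers checked had a mean of at least 100, with 909119 and 859806 reads together. Of 5 exocrine and duct markers 1 was in the table, with 7 and 13 reads, of 5 immune markers 2, with 26 and 22, and of 5 fibroblast and endothelial markers 4, with 81 and 97. Of 5 markers of other islet cells 3 were in the table, with 644 and 758 reads.

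The parent of each pseudogene was taken as the protein-coding gene whose transcript aligned with the highest score. All 153 had one, aligned over at least 97.0% of the pseudogene, and they came from 130 distinct parents. Sequence identity to the parent had a median of 99.5%, with 32 pseudogenes at 100%, 105 at 99% or more and 5 under 95%. The 1532 less read processed pseudogenes that could be aligned had a median identity of 96.5%. A median of 92.5% of the 31-mers (stretches of 31 bases) of the well-read pseudogenes also occurred in another annotated gene. That share was 58.4% in the less read processed pseudogenes and 1.53% in protein-coding genes with a mean of at least 100. Below the minimum the median share was higher in classes with more reads, with 57.7% at a mean of 2 to 10, 77.1% at 10 to 50 and 85.5% at 50 to 100. Of the 153, 148 shared 25% or more of their 31-mers, against 800 protein-coding genes (7.54%), and 37 shared all of them.

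The next sequences set the 7 pseudogenes whose reads differed by more than 1.5-fold between the libraries beside their parents, with Rpl21-ps15 added as the most read copy of Rpl21. Each is 100 bases from the coding part, 5′ to 3′, taken from GENCODE M21 transcripts (GRCm38) as the stretch with the most mismatches to the parent, and capitals mark those mismatches. Gm10241 (chr16:20176913-20177012, minus strand) is a copy of Sumo2, which encodes a small protein attached to other proteins, and had 0 mismatches over all 285 coding positions, so it is shown alone. Gm12411 (chr4:45550017-45550116, plus strand) and Rpl21-ps15 (chrX:151215218-151215317, minus strand) are copies of Rpl21, a protein of the large ribosomal subunit, and had 4 and 3 mismatches over 480 coding positions.
Gm10241: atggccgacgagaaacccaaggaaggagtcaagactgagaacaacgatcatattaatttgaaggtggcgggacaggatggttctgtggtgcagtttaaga
Gm12411: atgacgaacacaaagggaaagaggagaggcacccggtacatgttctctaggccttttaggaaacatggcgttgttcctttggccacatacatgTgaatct
Rpl21: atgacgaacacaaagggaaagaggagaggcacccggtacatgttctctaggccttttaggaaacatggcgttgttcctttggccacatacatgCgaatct
Rpl21-ps15: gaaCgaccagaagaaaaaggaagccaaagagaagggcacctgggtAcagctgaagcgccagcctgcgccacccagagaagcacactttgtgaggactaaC
Rpl21: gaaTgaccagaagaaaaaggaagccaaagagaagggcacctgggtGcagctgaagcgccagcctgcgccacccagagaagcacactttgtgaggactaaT

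Gm8116 (chr9:78821703-78821802, minus strand), Gm8121 (chr5:57608788-57608887, plus strand) and Gm9824 (chr10:29030542-29030641, plus strand) are copies of Carnmt1, Immp1l and Pebp1. Carnmt1 encodes the methyltransferase that makes anserine from carnosine, Immp1l a subunit of the inner membrane peptidase of mitochondria, and Pebp1 the Raf kinase inhibitor protein. They had 2 mismatches over 1198 coding positions, 5 over 496 and 6 over 561. Gm9826 (chr1:7178900-7178999, plus strand), a copy of Ahcy, had 11 over 1296. Gm4617 (chr3:124385667-124385766, plus strand), a copy of Ptma, had 0 mismatches and 3 gap positions over 332 aligned coding positions and is shown alone.
Gm8116: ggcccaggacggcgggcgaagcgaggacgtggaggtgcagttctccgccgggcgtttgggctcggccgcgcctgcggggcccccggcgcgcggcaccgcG
Carnmt1: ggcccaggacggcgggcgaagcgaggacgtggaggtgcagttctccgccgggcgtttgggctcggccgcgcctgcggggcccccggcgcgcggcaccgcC
Gm8121: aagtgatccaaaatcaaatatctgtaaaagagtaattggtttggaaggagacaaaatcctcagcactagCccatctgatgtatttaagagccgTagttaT
Immp1l: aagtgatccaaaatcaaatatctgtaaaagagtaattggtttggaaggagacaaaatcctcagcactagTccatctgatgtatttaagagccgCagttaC
Gm9824: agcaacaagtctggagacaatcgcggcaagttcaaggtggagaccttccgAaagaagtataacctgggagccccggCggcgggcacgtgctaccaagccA
Pebp1: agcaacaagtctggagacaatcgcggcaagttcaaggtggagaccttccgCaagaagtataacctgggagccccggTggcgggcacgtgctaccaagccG
Gm9826: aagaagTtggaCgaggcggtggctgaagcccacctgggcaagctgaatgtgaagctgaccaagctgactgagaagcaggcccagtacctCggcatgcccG
Ahcy: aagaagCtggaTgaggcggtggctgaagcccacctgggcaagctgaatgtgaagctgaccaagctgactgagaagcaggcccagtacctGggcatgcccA
Gm4617: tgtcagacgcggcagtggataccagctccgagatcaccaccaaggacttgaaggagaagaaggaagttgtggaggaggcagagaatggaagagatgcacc

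The last set shows a further pair of pseudogenes that had more reads than their parents. Rps10-ps2 (chr16:20822168-20822267, minus strand) had 5 mismatches to Rps10, a protein of the small ribosomal subunit, over 495 coding positions. Gm15681 (chr8:99147712-99147811, minus strand) was the exception among the most read pseudogenes. It had 222 mismatches and 82 gap positions over 2766 aligned coding positions to Ppp4r1, a regulatory subunit of protein phosphatase 4.
Rps10-ps2: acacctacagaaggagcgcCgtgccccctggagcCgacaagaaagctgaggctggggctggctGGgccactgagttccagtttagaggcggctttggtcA
Rps10: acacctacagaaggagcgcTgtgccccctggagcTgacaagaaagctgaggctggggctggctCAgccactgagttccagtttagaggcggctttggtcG
Gm15681: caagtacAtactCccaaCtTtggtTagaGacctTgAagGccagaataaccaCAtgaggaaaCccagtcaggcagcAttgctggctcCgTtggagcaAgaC
Ppp4r1: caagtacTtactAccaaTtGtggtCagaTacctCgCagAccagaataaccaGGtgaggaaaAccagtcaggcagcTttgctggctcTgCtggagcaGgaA

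Of the 153 pseudogenes, 149 were annotated with a single exon, and their median length was 657 bases (171 to 6092). The annotation placed 104 of them clear of any other gene, 46 inside an intron and 3 over an exon of another gene, and 19 of those 49 lay on the strand of the gene they overlapped. Chromosomes 6 and 7 carried 14 each, chromosome X 10 and chromosome Y 0. The longest open reading frame reached 90% of the parent's coding length in 94 pseudogenes and stayed under 50% in 28.

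Together the 153 pseudogenes held 61423 and 62010 reads, which is 0.331% and 0.335% of each library and 77.4% of the reads of all processed pseudogenes in either library. Their median mean was 215.5, against 883 for protein-coding genes with a mean of at least 100. Only 10 had a mean of 1000 or more, and 70 had a mean under 200. The values at the edge of the choice were close to each other: H3f3a-ps1, Gm2981 and Gm10819 had means of 103.0, 102.5 and 102.0, and just below it Smarce1-ps1, Gm6421 and Gm9923 had 99.5, 98.0 and 95.5.

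Gm15681, in an intron of the cadherin gene Cdh8 and on its strand, had the most reads, with 5673 and 5629. Cdh8 itself had 258 and 275 reads, and Ppp4r1 2021 and 1998. Only 7.33% of the 31-mers of Gm15681 occurred elsewhere. Next came Rpl17-ps10, a copy of the ribosomal protein gene Rpl17, with 2136 and 2091 reads. A further Rpl17 copy, Rpl17-ps3, had 1232 and 1252, while Rpl17 had 899 and 845. Both copies had more reads than the gene they resemble, in both libraries.

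Gm13509, a copy of the clathrin adaptor subunit gene Ap2m1, had 1889 and 2330 reads (1.24-fold, 95% interval 1.16 to 1.31), and Ap2m1 had 10652 and 9960. It lies in an intron of Mbd5, on the same strand, and Mbd5 had 610 and 712 reads. Over the 11 pseudogenes on the strand of an overlapping gene with a mean of at least 100, 5 lay on the same side of an equal level as that gene and 6 on the other. Vcp-rs, a copy of the gene of the segregase p97, had 1271 and 1522 reads (95% interval of the fold 1.11 to 1.29), and Vcp had 6579 and 6427.

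Gm7964, a copy of the RNA binding protein gene Hnrnpk, had 1904 and 1699 reads (0.895-fold, 0.838 to 0.956). Gm4204, from the nucleosome assembly gene Nap1l1, had 1390 and 1426, and Eif4a-ps4, from the helicase gene Eif4a1 of translation initiation, had 1118 and 1069. Rps10-ps2 had 1108 and 1170 reads where Rps10 had 116 and 100. Dynlt1-ps1, whose 342 bases are identical to transcripts of the dynein light chain genes, had 1082 and 1169, and Dynlt1a, the copy taken as its parent, had 518 and 463. Dynlt1c of the same gene cluster had 156 and 344. Of these 10 most read pseudogenes, Gm13509, Vcp-rs and Gm7964 had an interval that left out 1. So did 19.5% of all genes with a mean of at least 100. The share was 17.7% of protein-coding genes with a mean of 800 to 1600 and 24.9% at 1600 to 3200.

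Per kilobase of transcript, which allows levels of different genes to be set side by side, most pseudogenes stood below their parent. The median ratio of pseudogene to parent was 0.272 in the control library and 0.237 in the other. Of 151 pseudogenes with a parent in the table, 24 stood above the parent with the control vector, 23 with GR and 21 in both. Rps10-ps2 had 12.4 times the reads per kilobase of Rps10 in the control and 15.2 times in the GR library. Ratios were higher still for Dynlt1-ps1 over Dynlt1a, at 20.3 and 24.5, where the reads were 1082 and 1169 against 518 and 463. In the GR library Gstp-ps stood 45.5 times above Gstp2, which had only 5 reads there. Mpc1-ps, from the mitochondrial pyruvate carrier gene Mpc1, stood 10.7 and 11.4 times above its parent, with 806 and 712 reads against 219 and 181. Gm15681 stood 4.00 and 4.01 times above Ppp4r1, and Rpl17-ps10 3.32 and 3.46 times above Rpl17. These ratios use the length of the parent transcript that aligned best, and they carry the uncertainty of shared reads. A short copy of a long transcript can therefore stand above a parent that had more reads. Gm10039 stood 3.11 and 3.33 times above Atp5g1, with 591 and 570 reads against 2180 and 1964.

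**Figure D1:**
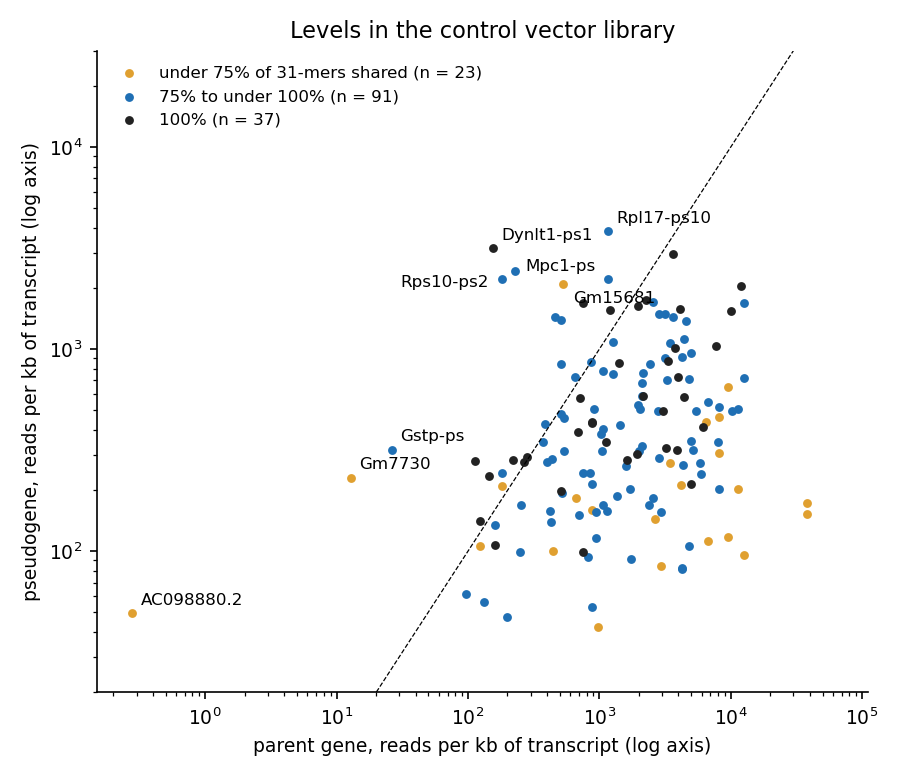
Reads per kilobase of transcript of 151 pseudogenes (vertical, log axis) against their parent genes (horizontal, log axis) in the control vector library, each point 1 pseudogene, coloured by the share of its 31-mers found in another gene, with a dashed line of equal levels. Most points lie below the line, and 24 pseudogenes, Rps10-ps2 and Gm15681 among them, lie above it.

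By the role of the parent, the largest group came from cytosolic ribosomal proteins, with 42 pseudogenes of 31 parents. They held 16888 and 17068 reads, and 21 lay above and 21 below an equal level, with a median log2 difference (GR over control) of 0.00. The ubiquitin and SUMO group had 3 (740 and 1649 reads, nearly all of the gap from Gm10241). Gm8430, a copy of the ubiquitin and ribosomal fusion gene Rps27a, had 150 and 188 reads and counts in both this group and the ribosomal group. The 5 copies of glycolytic enzyme genes all lay above an equal level (921 and 1010 reads, log2 from 0.03 to 0.26). Among them were Gm7336, from Gapdh, with 289 and 304 reads and Tpi-rs11, from the triosephosphate isomerase gene Tpi1, with 202 and 229. Neither passed 1.5-fold, and the intervals of both included 1.

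Copies of RNA binding protein genes numbered 10, with 3 above and 7 below an equal level (5312 and 5035 reads), and Gm11847, from Hnrnpa3, had 762 and 749. Copies of translation factor genes numbered 6, with 1 above and 5 below (2182 and 2050 reads), and Gm9892, from the initiation factor gene Eif2s2, had 311 and 310. Copies of chromatin protein genes numbered 8, with 3 above and 5 below. The 2 most read of these came from Hmgb1, a DNA-bending protein: Gm5518 had 901 and 926 reads and Gm5527 had 544 and 526, where Hmgb1 had 1460 and 1783.

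All 4 copies of chaperone and folding genes lay below an equal level (2029 and 1922 reads). They included Gm10123, identical to part of the cyclophilin gene Ppia, with 1007 and 985 reads, Ptges3-ps, from the Hsp90 cochaperone gene Ptges3, with 753 and 717, and Hspd1-ps3, from the mitochondrial chaperonin gene Hspd1, with 157 and 113 (0.722-fold, 0.562 to 0.925). Hspd1 itself had 4195 and 4441 reads. Mitochondrial protein genes gave 6 copies, 3 above and 3 below, led by the ATP synthase copies Gm10221 with 919 and 843 reads and Gm10039 with 591 and 570. The proteasome copies Gm13835 (587 and 626) and Gm8394 (153 and 136) and the cytoskeleton copies Gm11223 from Stmn1 (123 and 133) and Gm12715 from Actg1 (93 and 124) made up the smallest groups. The other 66 pseudogenes, 29 above and 37 below, came from 64 parents of other roles. None of these groups lay past 1.5-fold as a median.

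Between the libraries, 7 of the 153 pseudogenes (4.58%) differed by more than 1.5-fold, against 0.28% of the 11068 genes of any kind with a mean of at least 100. Of these, 3 were higher with the GR vector, against 0.126% of all genes, and 4 were lower, against 0.154%. Counts this low scatter more, so the members were also set beside protein-coding genes in the same classes of mean reads (width 0.5 on the log2 scale), weighted as the pseudogenes fall in them. In that mix 0.702% of protein-coding genes lay past 1.5-fold. The share was 2.56% for protein-coding genes with 25% or more of their 31-mers in another gene and 0.404% for the rest. Past 2-fold were 4 pseudogenes (2.61%), against 0.0994% of all genes. Of these 4, Gm12411, Gm8116 and Gm8121 reached the minimum through 1 library only, and Gm10241 did not.

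The middle of the distribution differed less than its ends. The median absolute log2 difference was 0.124 for the pseudogenes, 0.114 for protein-coding genes at like mean and 0.0687 for all genes with a mean of at least 100. The signed median was -0.01, with 69 pseudogenes above and 84 below 0, and 0.00 over all genes. Past 1.2-fold were 35 pseudogenes (22.9%), against 5.04% of all genes and 13.8% of protein-coding genes at like mean. The 95% counting interval of the fold left out 1 for 27 pseudogenes (17.6%), against 19.5% of all genes and 12.9% of protein-coding genes at like mean.

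**Figure D2:**
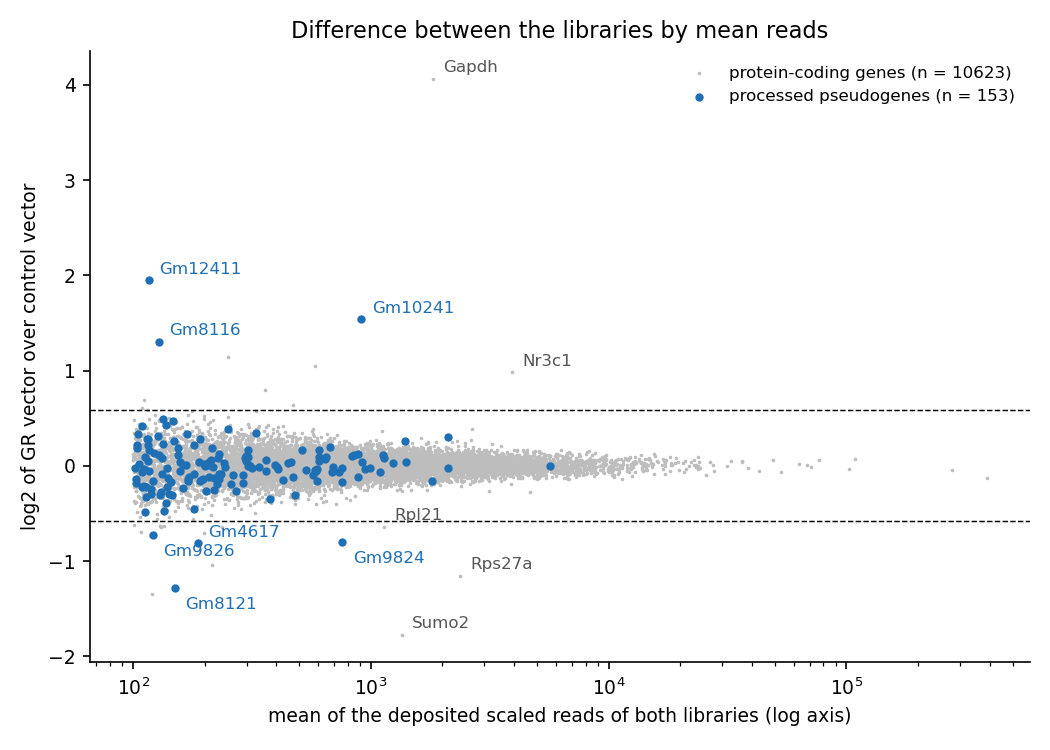
The log2 ratio of GR to control vector (vertical) against the mean deposited scaled reads (horizontal, log axis) for 153 processed pseudogenes (blue) and 10623 protein-coding genes (grey) with a mean of at least 100, with dashed lines at 1.5-fold. The blue points mostly lie within the grey cloud, and the 7 labelled pseudogenes lie beyond the dashed lines, 3 above and 4 below.

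The scatter was compared class by class of mean reads. Among the 70 pseudogenes with a mean of 100 to 200 the median absolute log2 was 0.215, against 0.142 for 962 protein-coding genes, and 5 pseudogenes (7.14%) and 1.04% of the protein-coding genes were past 1.5-fold. Of these 5, Gm12411, Gm8116, Gm8121 and Gm9826 reached the minimum through 1 library only. With at least 100 reads in each library, the medians in this class were 0.166 for 59 pseudogenes and 0.134 for 886 protein-coding genes, and 1 pseudogene (1.69%) and 0.451% of the protein-coding genes were past 1.5-fold. At 200 to 400 the medians were 0.0902 for 39 pseudogenes and 0.110 for protein-coding genes, and at 400 to 800 they were 0.0695 for 26 and 0.0758. At 800 to 1600 they were 0.0913 for 14 pseudogenes and 0.0595, and at 1600 to 3200 they were 0.16 for 3 and 0.0502. Past 1.5-fold were 0 pseudogenes at 200 to 400, 1 (3.85%) at 400 to 800, against 0.0842% of protein-coding genes, and 1 (7.14%) at 800 to 1600, against 0.0776%. Among the pseudogenes themselves the median scatter was not ordered by shared sequence. The median absolute log2 was 0.168 for the 24 with under 75% of their 31-mers shared, which had fewer reads, 0.107 at 75% to 90%, 0.125 at 90% to 100% and 0.117 for the 37 with all shared. Past 1.5-fold were 0 of the 24, 3 of 44 at 75% to 90%, 2 of 48 at 90% to 100% and 2 of the 37. By length, the 53 pseudogenes under 500 bases had a median of 0.165, the 52 of 500 to 1000 bases 0.0984 and the 48 longer ones 0.137. Past 1.5-fold were 4 of the 53, 1 of the 52 and 2 of the 48.

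**Figure D3:**
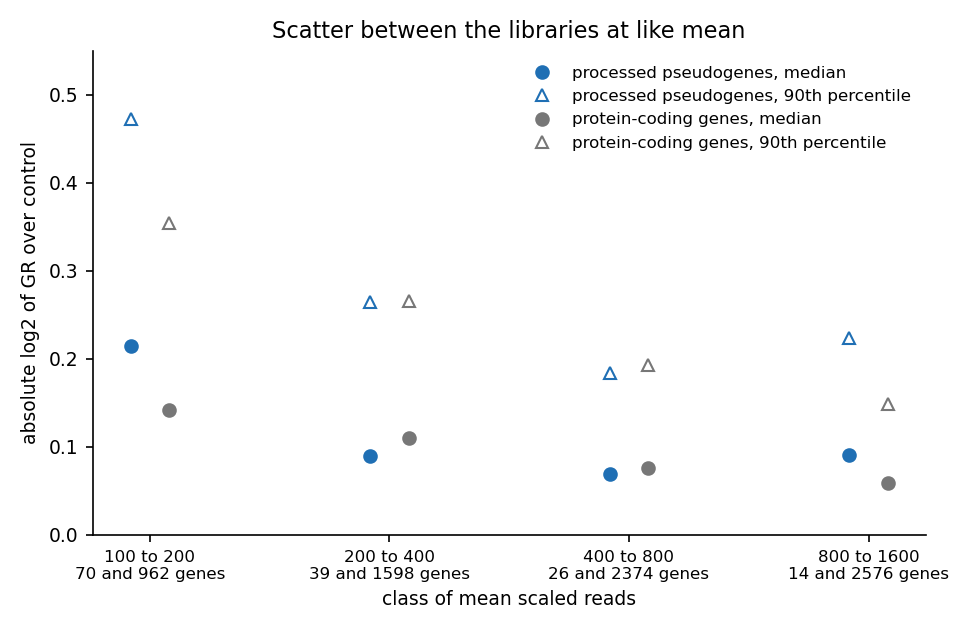
Absolute log2 difference between the libraries (vertical) by class of mean scaled reads (horizontal), as the median (filled circles) and the 90th percentile (open triangles), for processed pseudogenes (blue) and protein-coding genes (grey); the numbers of each are under the classes. The pseudogenes stand above the protein-coding genes at 100 to 200 and at 800 to 1600, and at or slightly below them in the classes between.

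The 3 pseudogenes higher with the GR vector were Gm12411, Gm10241 and Gm8116. Gm12411 had 48 and 185 reads (3.87-fold, 2.80 to 5.43), and its parent Rpl21 had 1390 and 890. Gm10241 had 468 and 1357 (2.91-fold, 2.62 to 3.24), and Sumo2 had 2087 and 609. Gm8116 had 74 and 182 (2.47-fold, 1.87 to 3.28), and Carnmt1 had 434 and 330. In each of these pairs the parent was lower where the pseudogene was higher.

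Among the 4 lower with the GR vector, Gm8121 had 213 and 87 reads (0.410-fold, 0.315 to 0.528), while Immp1l had 367 and 489. Gm9824 had 965 and 553 (0.575-fold, 0.517 to 0.639), while Pebp1 had 3197 and 3571. Gm4617, a copy of the prothymosin alpha gene Ptma, had 239 and 136 (0.571-fold, 0.459 to 0.707), while Ptma had 15368 and 15505. Gm9826, a copy of the adenosylhomocysteinase gene Ahcy, had 151 and 91 (0.604-fold, 0.461 to 0.789), and Ahcy had 2397 and 2383. So 6 of the 7 parents lay on the other side of an equal level from the pseudogene, Ahcy being the exception. The parent's own interval included 1 for Ptma (1.01-fold, 0.989 to 1.03) and for Ahcy (0.997-fold, 0.942 to 1.06). Gm12411, Gm8116, Gm8121 and Gm9826 reached the mean of 100 with fewer than 100 reads in 1 library; of the 142 pseudogenes with at least 100 reads in each library, 3 (2.11%) lay past 1.5-fold, against 0.174% of all 10951 genes with that many reads in each library.

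The sum of a parent and all its annotated pseudogenes lay closer to an equal level than both the parent and the summed pseudogenes in 6 of these 7 families. A sum lies between its parts, so this was possible only where the parent and its pseudogenes lay on opposite sides of an equal level. The 6 families are those of the 6 opposite pairs above, so this count is not a further result. Immp1l with Gm8121 came to 580 and 576 reads, with 126 fewer in the pseudogene and 122 more in the parent. Carnmt1 with Gm8116 came to 508 and 512, with 108 more in the pseudogene and 104 fewer in the parent. Pebp1 with Gm9824 and Gm10819 came to 4265 and 4225, with 414 fewer reads in the pseudogenes and 374 more in the parent. Sumo2 with its 7 pseudogenes came to 2594 and 2004 (0.775-fold, 0.731 to 0.822), so the 888 reads more in the pseudogenes were fewer than the 1478 by which the parent was lower. Rpl21 with 27 pseudogenes came to 2516 and 2266, and Ptma with 5 came to 16196 and 16291. The exception was Ahcy with Gm9826, at 2548 and 2474. Whether reads moved between a parent and its copies in assignment was not tested.

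**Figure D4:**
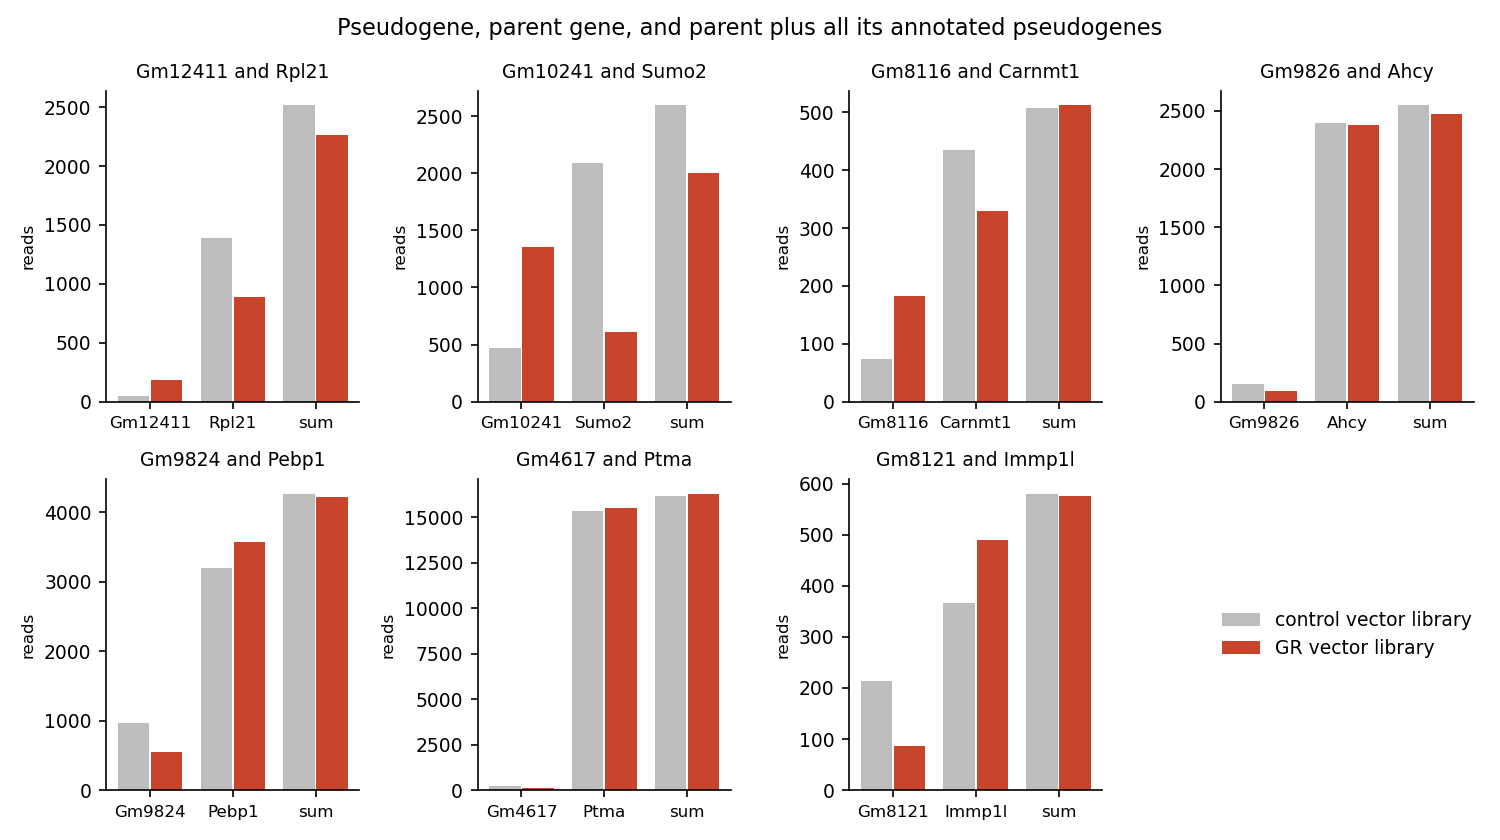
Reads (vertical, each panel with its own axis from 0) in the control vector library (grey) and the GR vector library (red) for the 7 pseudogenes past 1.5-fold, for the parent gene, and for the sum of the parent and all its annotated pseudogenes. The sums of the Carnmt1, Immp1l and Pebp1 panels are nearly level (508 and 512, 580 and 576, 4265 and 4225), and the Sumo2 sum is lower with the GR vector (2594 and 2004).

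The authors' deposited table lists 4 of these pseudogenes, Gm12411, Gm10241, Gm8116 and Gm8121, among the 233 genes of its shorter list (2.61% of the 153, against 0.0994% of all genes with a mean of at least 100). No pseudogene of the 153 had an adjusted p under 0.05 in the authors' deposited table, where Gm12411 was lowest with 0.189. An exact test in edgeR on the recovered reads with a preset dispersion of 0.04 gave the deposited p-values to within 4.5e-08, so these rest on a preset spread, not on replicates. With that test 4 of the 153 (2.61%) had an unadjusted p under 0.05, against 0.108% of all genes with a mean of at least 100.

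Of the 130 parents, 125 had a mean of at least 100. For these the median absolute log2 was 0.116 for the summed pseudogenes, 0.0496 for the parent and 0.0343 for parent and pseudogenes together, and the sum lay closer to an equal level than the pseudogenes in 92 of 125 and than the parent in 83. Sums hold more reads than their parts, so their counting error is smaller. A sum also lies between its parts, so it cannot lie further from an equal level than both. Signs alone showed little: parent and pseudogene lay on opposite sides of an equal level for 84 of 148 pseudogenes (56.8%), and for 20 of the 33 past 1.2-fold.

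**Figure D5:**
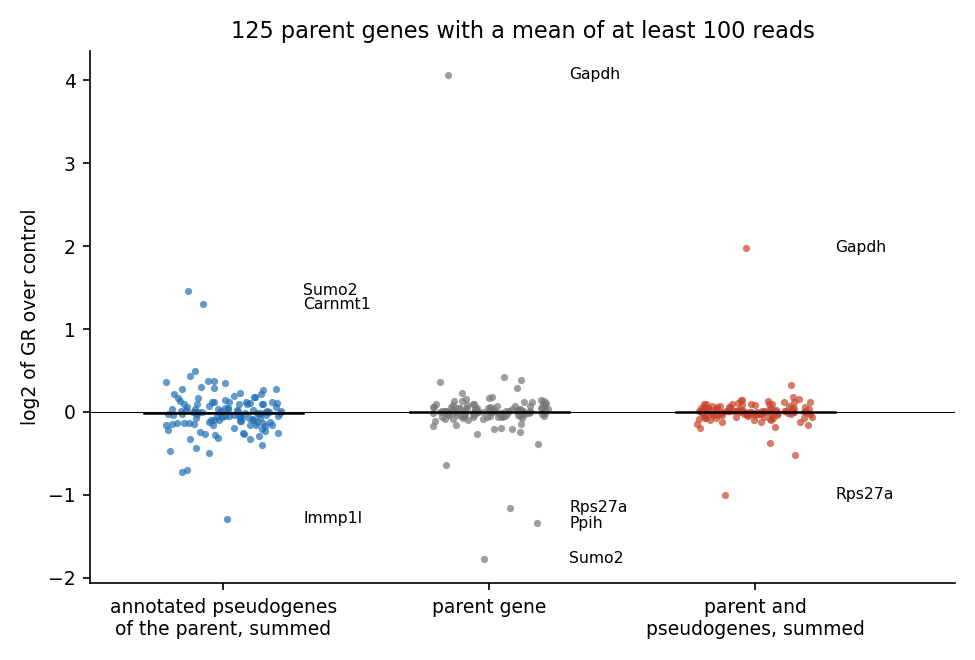
The log2 ratio of GR to control vector (vertical) for 125 parent genes, shown for the summed pseudogenes of each parent, for the parent, and for their sum; each point is 1 parent, black bars are medians, and families past 0.9 are labelled. The sums cluster nearest to 0, with Gapdh above and Rps27a below.

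Of the same 125 parents, 5 (4%) lay past 1.5-fold, against 0.113% of protein-coding genes at like mean, and these 5 were Gapdh, Rps27a, Sumo2, Ppih and Rpl21. Gapdh, the glycolytic dehydrogenase, had 206 and 3439 reads. Its 69 pseudogenes in the table together had 919 and 986, and its 3 well-read copies had little of the parent's gap: Gm7336 had 289 and 304, Gm5559 135 and 161 and Gm12070 107 and 124. Gm7336 and Gm12070 had all their 31-mers in other genes as well. The sum of the family was 1125 and 4425 reads (3.94-fold, 3.69 to 4.22).

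Rps27a had 3263 and 1463 reads, its copies 207 and 266, and their sum 3470 and 1729 (95% interval of the fold 0.471 to 0.530). Ppih, a cyclophilin of the spliceosome, had 173 and 68, and its identical copy Gm11585 had 166 and 167. For Rpl21 the most read copy, Rpl21-ps15, had 813 and 879 reads and Rpl21-ps8 had 118 and 101. In the Gapdh, Rps27a and Ppih families the copies therefore differed far less than the parent. In the Sumo2 family 1 copy, Gm10241, differed about as strongly as the parent and in the other direction. The other Sumo2 copies had at most 14 reads in either library. Gstp-ps (201 and 180) and AC098880.2 (117 and 157) had parents that passed the fold with too few reads to compare, Gstp2 with 21 and 5 and Gm13212 with 1 and 2.

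Of 58 gene symbols listed for having many processed pseudogenes in mouse, 57 were measured, all with a mean of at least 100. The list held both Gnb2l1 and Rack1, symbols of the same gene, of which only Rack1 was found. The 57 genes were the parents of 386 pseudogenes in the table, 36 of them well read, and 6 of the 57 had no pseudogene there. Their median log2 was 0.01, with 36 above and 21 below 0. Past 1.5-fold were Gapdh, Rps27a, Sumo2 and Rpl21, beside 0.198% of all protein-coding genes with a mean of at least 100. These 4 are the parents already described, and the list was chosen with their values known, so its count adds no support. Among protein-coding genes at large, 12 of the 800 with 25% or more of their 31-mers shared (1.5%) lay past 1.5-fold, against 9 of the 9816 with less (0.0917%).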

How the data were processed

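RNA was sequenced from 1 control vector and 1 GR vector library. The authors deposited, per gene, a scaled read signal for each library, a log2 fold change, a p-value and an adjusted p-value. DESeq2 1.10.1 is named in the submitters' processing notes; the aligner, counter, strand handling or build is not given in the sources used here. All values (100%, within 0.01 reads) were whole multiples of a fixed step in each library, and reads were recovered by division; folds use the deposited scaling. Reads per gene limit the precision, and intervals cover counting error only.

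Genes were matched by identifier to GENCODE M21 (GRCm38), and 150 of the 153 pseudogenes kept the same position. Parents were found with BLAST 2.17.0 (blastn, E-value 1e-20, at least 50% of the pseudogene aligned; ties went to genes in the table). Shared 31-mers were counted on both strands over all annotated transcripts. Difference beyond 1.5-fold was the call. The count test was the exact test of edgeR 4.0.16 (R 4.3.3) with TMM scaling and a preset dispersion of 0.04. The scripts were tested on simulated data.

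The members, families and lists were chosen with earlier results of these data known. Genes were named as follows: the 10 highest means, the 10 largest absolute differences, members whose parent was past 1.5-fold, the 2 highest of each family, their parents, and 3 on each side of the minimum. Mpc1-ps, Dynlt1c and the overlapping genes were named after their values were seen. Alternatives were other minimum means (50 and 200), folds of 1.2 and 2, total-read scaling, centring on protein-coding genes, subsets by shared 31-mers or overlap, class width 1 and 80% alignment.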

Additional observations from a re-analysis of the deposited data

How the results depend on the processing

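No paired analysis was possible because each group has 1 library and the labels give no replicate numbers. The share of pseudogenes past 1.5-fold (4.58%) was 7.92% at a minimum mean of 50, 2.41% at 200, 3.85% for the 104 that overlap no other gene and unchanged at 4.58% under both other scalings. It was 22.9% at a fold of 1.2, 2.61% at a fold of 2 and 0.0% for the 5 pseudogenes with under 25% of their 31-mers shared. The median absolute log2 (0.124) was 0.0870 at a minimum mean of 200 and 0.273 for those 5, whose median log2 was 0.0866 in place of -0.01. A preset dispersion of 0.16, chosen after seeing the data together with the subset of 142, took the edgeR calls over all genes from 4 at adjusted p under 0.05 to 0, with 1 of the 153 pseudogenes at an unadjusted p under 0.05 in place of 4. The cause of these differences was not tested. Over the remaining alternatives the median absolute log2 lay between 0.117 and 0.156, and the median log2 between -0.0236 and -0.00766. The share past 1.5-fold was 2.11% for the 142 with at least 100 reads in each library. The share with a counting interval that left out 1 (17.6%) lay between 15.4% and 20%. For protein-coding genes at like mean the median (0.114) was 0.113 with class width 1. The median of the family sums (0.0343) was unchanged at 80% alignment. Reads were fewest in the lowest class, at a mean of 100 to 200, where 7.14% of pseudogenes and 1.04% of protein-coding genes lay past 1.5-fold. The part that depth played in this was not tested.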

Other observations

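Other annotated kinds of pseudogene were also well read. Of 101 transcribed processed pseudogenes in the table, 22 had a mean of at least 100, with a median absolute log2 of 0.153 against 0.109 for protein-coding genes at like mean, and 0 lay past 1.5-fold. Of 130 unprocessed pseudogenes, 8 had a mean of at least 100 and 1 lay past 1.5-fold: Gm29216, a nuclear copy of mitochondrial mt-Co1, with 143 reads in the control and 241 in the GR library. Gm10925, a nuclear copy of mt-Atp6, had 318 and 410 reads, where mt-Atp6 had 381 and 788, and Gm28437, a copy of mt-Co3, had 257 and 278 where mt-Co3 had 370 and 575. Gpr137b-ps had 2513 and 2356 reads against 147 and 163 for Gpr137b, so a pseudogene with more reads than the gene it resembles was seen outside the processed class as well.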
